A study of Mus musculus with 12 samples.

Results

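The cytosolic ribosome is the particle that translates mRNA into protein. These data hold 85 genes for its proteins, of 23337 genes counted in mouse cardiomyocytes (CMs), the muscle cells of the heart. Members were taken by name: the Rpl and Rps symbols that consist of a number and an optional suffix, together with Rplp0, Rplp1, Rplp2 and Rpsa. By role, 43 encode proteins of the large subunit, 3 encode the stalk to which translation factors bind, 31 encode proteins of the small subunit, and 8 are paralogous copies of a subunit gene (Rpl3l, Rpl7l1, Rpl10l, Rpl22l1, Rpl36al, Rpl39l, Rps4y2 and Rps27l). The members lie on 19 chromosomes.

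There were 4 groups of 3 samples. Knockout (KO) mice were Srf-flox/flox and control (CTRL) mice Srf-flox/+, so CTRL CMs retained an intact copy of Srf, which encodes a transcription factor that binds the CArG box. All 12 samples came from animals that carried a fluorescent reporter switched on by Cre and that received AAV9-cTNT-Cre, a virus in which the cardiac troponin T promoter drives Cre in CMs. In the neonatal model the virus was injected on postnatal day (P) 1 and fluorescent CMs were sorted at P14, and in the adult model injection was at P60 and sorting at P90. The virus was given at a dose that reached part of the CMs, so the sorted cells came from hearts in which other CMs kept Srf.

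A ribosome needs its proteins in near-equal numbers, and most of them are made from 1 gene each. Their mRNAs begin with a C followed by a run of pyrimidines, the 5′ terminal oligopyrimidine (TOP) tract, through which the mTORC1 pathway and the RNA-binding protein LARP1 control their translation and stability. The heart and skeletal muscle have 1 well known exchange, in which Rpl3l takes the place of Rpl3, a protein near the catalytic centre of the large subunit, as the muscle matures.

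Srf mRNA was 63.9, 57.1 and 49.4 CPM (the count scaled to library size) in P14 CTRL and 32.1, 27.5 and 9.74 CPM in P14 KO, with no overlap. It was 71.1, 59.1 and 81.1 CPM in P90 CTRL and 32.8, 28.9 and 28.1 CPM in P90 KO, also with no overlap. The log2 difference in the neonatal model was −1.30 (edgeR adjusted p = 0.0628, and 0.0220 with the replicate number as a block), and in the adult model it was −1.23 (adjusted p = 0.00347). Libraries held 9740389 to 23103460 counts. The summed level of the 8 CM markers was 78920 to 85990 CPM in KO against 121300 to 127400 CPM in CTRL at P14, and 96340 to 100100 CPM against 110100 to 125800 CPM at P90. Single markers went both ways: Myh6 and Actc1 fell in neonatal KO and Actc1 in adult KO, while 1 of 8 log2 differences in the neonatal and 5 of 8 in the adult model were above 0. The sum of the 8 smooth muscle and pericyte markers was 519 to 809 CPM in KO against 1290 to 1732 CPM in CTRL at P14 and 522 to 603 CPM against 714 to 949 CPM at P90. Of these, Acta2 fell in neonatal KO, and 2 of 8 differences in the neonatal and 5 of 8 in the adult model were above 0. The 8 immune markers summed to at most 13.8 CPM and the red cell markers to at most 2.86 CPM. The 8 fibroblast markers summed to 107 to 317 CPM at P14 and 48.0 to 68.4 CPM at P90, and the 8 endothelial markers to 234 to 525 CPM, without separating KO from CTRL. The 4 Y-linked genes summed to 223, 202 and 261 CPM in P14 CTRL sample 1, P14 KO sample 3 and P90 CTRL sample 3, and to at most 0.117 CPM in the other samples. The part of these genes and cells in the results was not tested. In bulk RNA of this kind, fewer cells of a type and less RNA per cell cannot be told apart. The labels name biological replicates without saying whether a number marks a litter.

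To show what a TOP tract looks like, the start of 7 subunit genes chosen because they carry one is printed from RefSeq windows (GRCm38.p6), 20 bases before and 10 bases from the annotated start, 5′ to 3′ on the coding strand. Capitals mark the first C followed by at least 4 pyrimidines, sought from 10 bases before the start. The last line gives the same window of Rpl3l, which has no such run.
Rplp2, chr7:141447631-141447660, plus strand: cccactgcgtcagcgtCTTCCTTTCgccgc
Rpl15, chr14:18270977-18271006, minus strand: ggattgtgggagaaagCCTTCTTCCTTTCC
Rpl28, chr7:4792945-4792974, plus strand: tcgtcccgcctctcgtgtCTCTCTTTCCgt
Rpl35, chr2:39005122-39005151, minus strand: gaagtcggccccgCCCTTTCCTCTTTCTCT
Rps6, chr4:86857358-86857387, minus strand: gggttaagcggaagtcgggCCTCTTTTTCg
Rps15a, chr7:118116138-118116167, minus strand: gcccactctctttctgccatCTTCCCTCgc
Rps10, chr17:27635235-27635264, minus strand: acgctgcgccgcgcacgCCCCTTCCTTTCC
Rpl3l, chr17:24727806-24727835, plus strand: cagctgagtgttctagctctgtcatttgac

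RefSeq windows were at hand for 63 of the 85 members, of which 56 were not paralogous copies. A C followed by at least 4 pyrimidines, beginning within 10 bases of the start on the coding strand, was found in 34 of these 56 genes (60.7%), not in the other 22, and in 34.4% of 27025 genes with a window. TATAAA, sought on the coding strand in the 50 bases before the start, was found in 0 of 56 genes and in 3.15% of all. Over the 250 bases before the start and on both strands, GGGCGG was found in 28 of 56 genes, against 35.4% of all, and the E-box CANNTG also in 28 of 56, against 69.3% of all. The CArG box was found in 1 of 56 genes, Rpl10a, and in 1.62% of all genes. These are matches of letters, not sites of binding.

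The members together took a small and fairly even share of each library. The share was 0.349%, 0.395% and 0.282% of counts in P14 CTRL and 0.352%, 0.355% and 0.330% in P14 KO. It was 0.343%, 0.301% and 0.325% in P90 CTRL and 0.453%, 0.432% and 0.362% in P90 KO. The P90 KO samples lay above the P90 CTRL samples, while at P14 the KO samples lay within the CTRL range. Most members are short: the median exon length of the 77 genes other than the paralogous copies was 703 bases, against 2966 bases for the genes with a mean of at least 1 CPM, and 60 of the 77 were under 1000 bases.

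Levels are compared between genes as RPKM, which is CPM divided by exon length in kilobases. The median over the 77 genes was 36.2 RPKM in P14 CTRL, 33.7 in P14 KO, 36.3 in P90 CTRL and 47.8 in P90 KO, against 7.18 to 7.58 RPKM for all genes over 1 CPM. Rplp0, the stalk base, ranked first in every group, at 180 ± 22.5 RPKM (SD, n = 3) in P14 CTRL and 203 ± 13.2 in P90 CTRL. In P14 CTRL it was followed by Rpl4, Rps14, Rps27l and Rpl8, and each of these overlapped its neighbour in that order over the 3 samples. In P90 CTRL, Rplp0 was followed by Rpl3l and then Rps14, and the step from Rpl3l to Rps14 was the only one among the first 7 steps without overlap.

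At the other end, 3 subunit genes were at or near 0. Rpl26 had 0 counts in all 12 samples, Rpl30 had 3 to 17 counts and Rps27 had 1 to 10. Each shares exon bases with a second row of the table on the same strand: Rpl26 95.8% of its bases, Rpl30 76.0% and Rps27 60.0%. Rpl34, with 4 to 34 counts, shares 67.2% of its bases with a row named as its pseudogene. How reads in shared bases or reads with several matches in the genome were counted is not stated. These levels therefore cannot be taken to measure the mRNA, and the part of pseudogenes in the other members' counts was not tested. The 6 rows named as pseudogenes of a member held 8 to 25 counts per sample in all. Of the 85 members, 80 passed the filter on low counts in every comparison. The other 5 were Rpl26, Rpl30, Rps27 and the copies Rpl10l and Rpl39l.

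**Figure D1:**
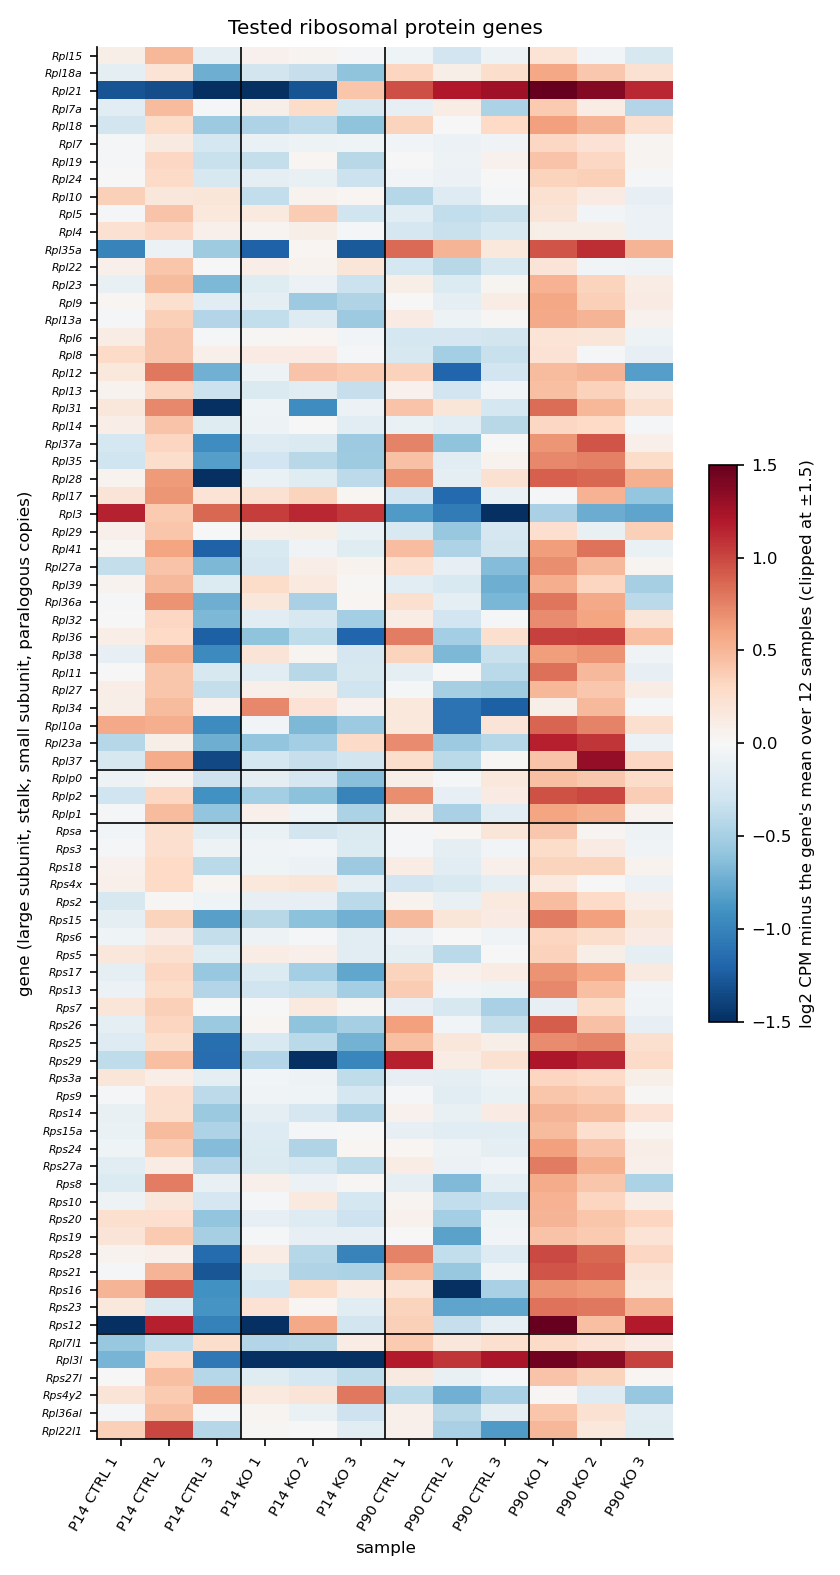
Log2 CPM of 79 of the 80 tested members (rows, by role) in the 12 samples (columns), each as the difference from the gene's own mean over the 12 samples, with colours clipped at ±1.5. P90 KO samples 1 and 2 are mostly red, P14 CTRL sample 3 is mostly blue, and Rpl3, Rpl3l, Rpl21 and Rpl35a change colour between P14 and P90.

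The samples differed from each other along all members at once. Relative to each gene's mean over the 12 samples, the median over the 74 tested members other than the copies stood at −0.02, 0.33 and −0.45 on the log2 scale in P14 CTRL and at −0.11, −0.09 and −0.27 in P14 KO. It stood at 0.09, −0.18 and −0.07 in P90 CTRL and at 0.53, 0.43 and 0.08 in P90 KO. P14 CTRL spanned the whole P14 KO range, and P90 KO sample 3 lay level with P90 CTRL sample 1. Sample 2 was the highest of the P14 CTRL samples for 72 of 80 members and sample 3 the lowest for 69. In P90 KO, sample 3 was the lowest for 77 members and sample 1 the highest for 64. Other genes with under 1000 exon bases moved alongside, at −0.10, 0.24 and −0.20 in P14 CTRL, −0.26, −0.15 and −0.28 in P14 KO, 0.16, −0.07 and 0.05 in P90 CTRL, and 0.39, 0.27 and 0.07 in P90 KO.

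**Figure D2:**
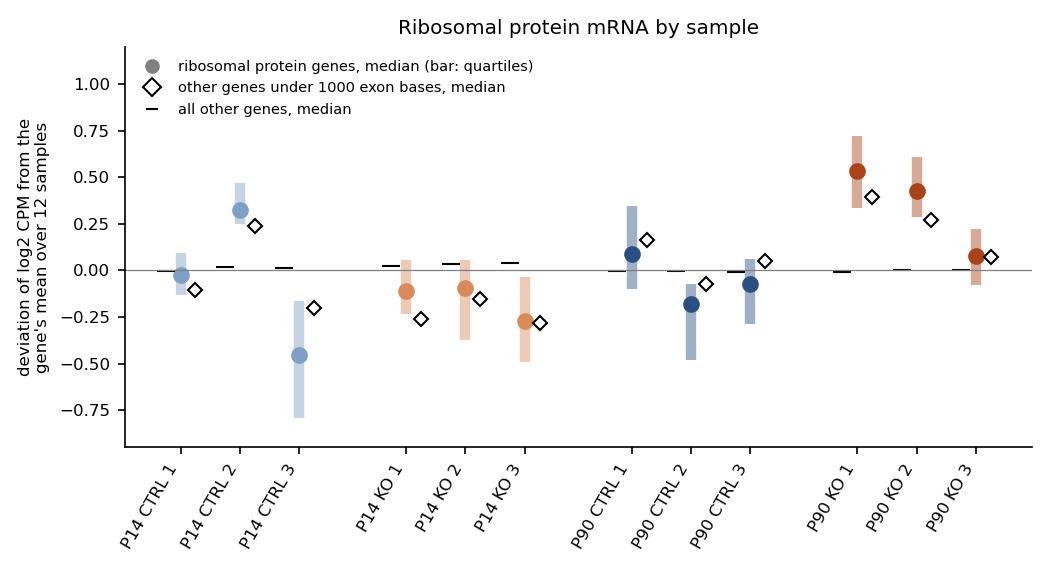
Median deviation of log2 CPM from the gene's mean over 12 samples, by sample, for 74 tested members without the copies (circles, with bars for the quartiles), for other genes under 1000 exon bases (diamonds) and for all other genes (dashes). The members range from −0.45 in P14 CTRL sample 3 to 0.53 in P90 KO sample 1, and the diamonds follow the circles.

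The first comparison asked whether loss of Srf in maturing CMs changed ribosomal protein mRNA. One member passed an adjusted p under 0.05. Rpl3l, the muscle copy of Rpl3, fell by 1.52 ± 0.38 (SE) on the log2 scale in neonatal KO. Its adjusted p was 0.0466 in edgeR's quasi-likelihood test. This was 1 of 80 members lower, where 4.60% of all genes tested were lower, and 0 were higher, against 3.99% of all genes. DESeq2 also gave 1 lower and 0 higher, where 7.86% of all genes were lower and 6.19% higher. At an unadjusted p under 0.05 there were 3 members, against 25.6% of all genes in either direction. They were Rpl3l, Rpl9 and Rpl10. Rpl9 and Rpl10 are large subunit proteins, and Rpl10 is among the last to be added. Rpl10 stood at 54.1, 47.3 and 47.6 CPM in CTRL and 32.6, 43.6 and 42.9 CPM in KO, with a log2 difference of −0.33 ± 0.14 and an adjusted p of 0.176. Rpl3l and Rpl10 were the 2 members whose KO samples all lay below the CTRL samples, where 16.7% of all genes did so, and 0 members lay above.

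Most of the other members gave small differences below 0. The largest difference among them was that of Rpl21, 1.02 ± 0.58 (adjusted p = 0.311 in edgeR). Rpl21 stood at 2.86, 2.80 and 1.46 CPM in CTRL and 2.07, 2.87 and 9.64 CPM in KO. Of 80, 71 were negative, with a median of −0.17 on the log2 scale against 0.00 over all genes tested. The medians were −0.17 for the large subunit, −0.18 for the small subunit and −0.23 for the stalk, and they were −0.19 for the 32 tested proteins shared with bacteria and −0.16 for the 42 that bacteria lack. The 61 members under 1000 exon bases had a median of −0.19 and other genes of that length −0.22. The 19 members of 1000 bases or more had a median of −0.16, with 3 above 0, and other genes of that length 0.01, with 51.8% above 0. The sign and size of the members' median depended on single CTRL samples and on the processing. It was 0.01 without P14 CTRL sample 2, −0.36 without sample 3 and 0.00 after a correction for gene length. With total counts in place of TMM scaling, an alternative chosen after seeing the data, it was 0.05. That scaling also moved the median of all genes to 0.22, so the members' median still lay below it.

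The ends of the range were taken by a rule that also required a mean of 5 CPM. Apart from Rpl3l, the members there did not pass the test. Rps29, a small subunit protein with a zinc-binding motif, stood at 27.4, 48.7 and 16.1 CPM in CTRL and at 26.4, 11.1 and 18.0 CPM in KO (log2 difference −0.74 ± 0.42, adjusted p = 0.313 in edgeR). Rpl10a, a large subunit protein, stood at 12.0, 11.8 and 4.15 CPM in CTRL and at 7.87, 5.02 and 5.503 CPM in KO (−0.61 ± 0.39, adjusted p = 0.369). In both, one CTRL sample lay inside or below the KO range. Rpl3 gave 0.24 ± 0.17, Rps23, a protein of the decoding centre, 0.28 ± 0.25, and Rpl23a, which lies at the tunnel exit, 0.10 ± 0.29, with adjusted p of 0.444, 0.531 and 0.876. The sign of Rpl23a turned without P14 CTRL sample 3 (−0.07) or P14 KO sample 3 (−0.22).

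Among members named for their roles, Rps6, the subunit protein phosphorylated by S6 kinase, stood at 47.9, 54.2 and 38.8 CPM in CTRL and 47.4, 49.4 and 44.1 CPM in KO, with the KO samples inside the CTRL range. Rpl5 and Rpl11, which with the 5S RNA can bind Mdm2, gave log2 differences of −0.10 ± 0.19 and −0.36 ± 0.18. Rps19, the gene most often altered in Diamond-Blackfan anaemia, gave −0.17 ± 0.21, Rpsa, which is also known as a laminin receptor, −0.22 ± 0.13, and Rpl13a, part of an interferon-induced complex that silences mRNAs, −0.36 ± 0.20. Rpl38, known for its role in translating Hox mRNAs, gave 0.05 ± 0.33, and Rps25, needed by several viral and cellular internal ribosome entry sites, −0.19 ± 0.31. None of these 8 passed at an adjusted p under 0.05.

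The second comparison asked the same of mature CMs. In adult KO nearly all members lay above CTRL: 79 of 80 log2 differences were above 0, with a median of 0.38 against 0.01 over all genes tested, and the 1 below 0 was Rpl7l1 at −0.06. The members moved together by sample, so these are not 80 separate results. By the sample medians above, P90 KO sample 3 (0.08) lay level with P90 CTRL sample 1 (0.09). No member passed the threshold on its own in edgeR. There were 0 of 80 higher at an adjusted p under 0.05, where 0.237% of all genes tested were higher. At an unadjusted p under 0.05, 52 of 80 were higher, against 8.13% of all genes, and 0 were lower. The KO samples lay above the CTRL samples in 29 of 80 members, against 10.4% of all genes. The number past an adjusted p under 0.05 depended on the method: DESeq2 gave 6 higher (Rpl27, Rps23, Rps20, Rpl32, Rps19 and Rplp1), where 1.86% of all genes were higher, and edgeR without the filter on low counts gave 34 higher, where 1.84% were.

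By role, the median was 0.41 for 41 large subunit genes, 0.35 for 30 small subunit genes, 0.53 for the 3 stalk genes and 0.29 for the 6 tested copies, and it was 0.38 for proteins shared with bacteria and 0.45 for those that bacteria lack. Gene length moved with it. The 61 members under 1000 exon bases had a median of 0.44 and other genes of that length 0.21, of which 84.4% were above 0. The 19 members of 1000 bases or more had a median of 0.31, with 18 above 0, while other genes of that length had a median of −0.01, with 48.5% above 0. After a correction that removes the trend on exon length from each library, 77 of 80 members were still above 0, with a median of 0.19 and 0 at an adjusted p under 0.05.

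**Figure D3:**
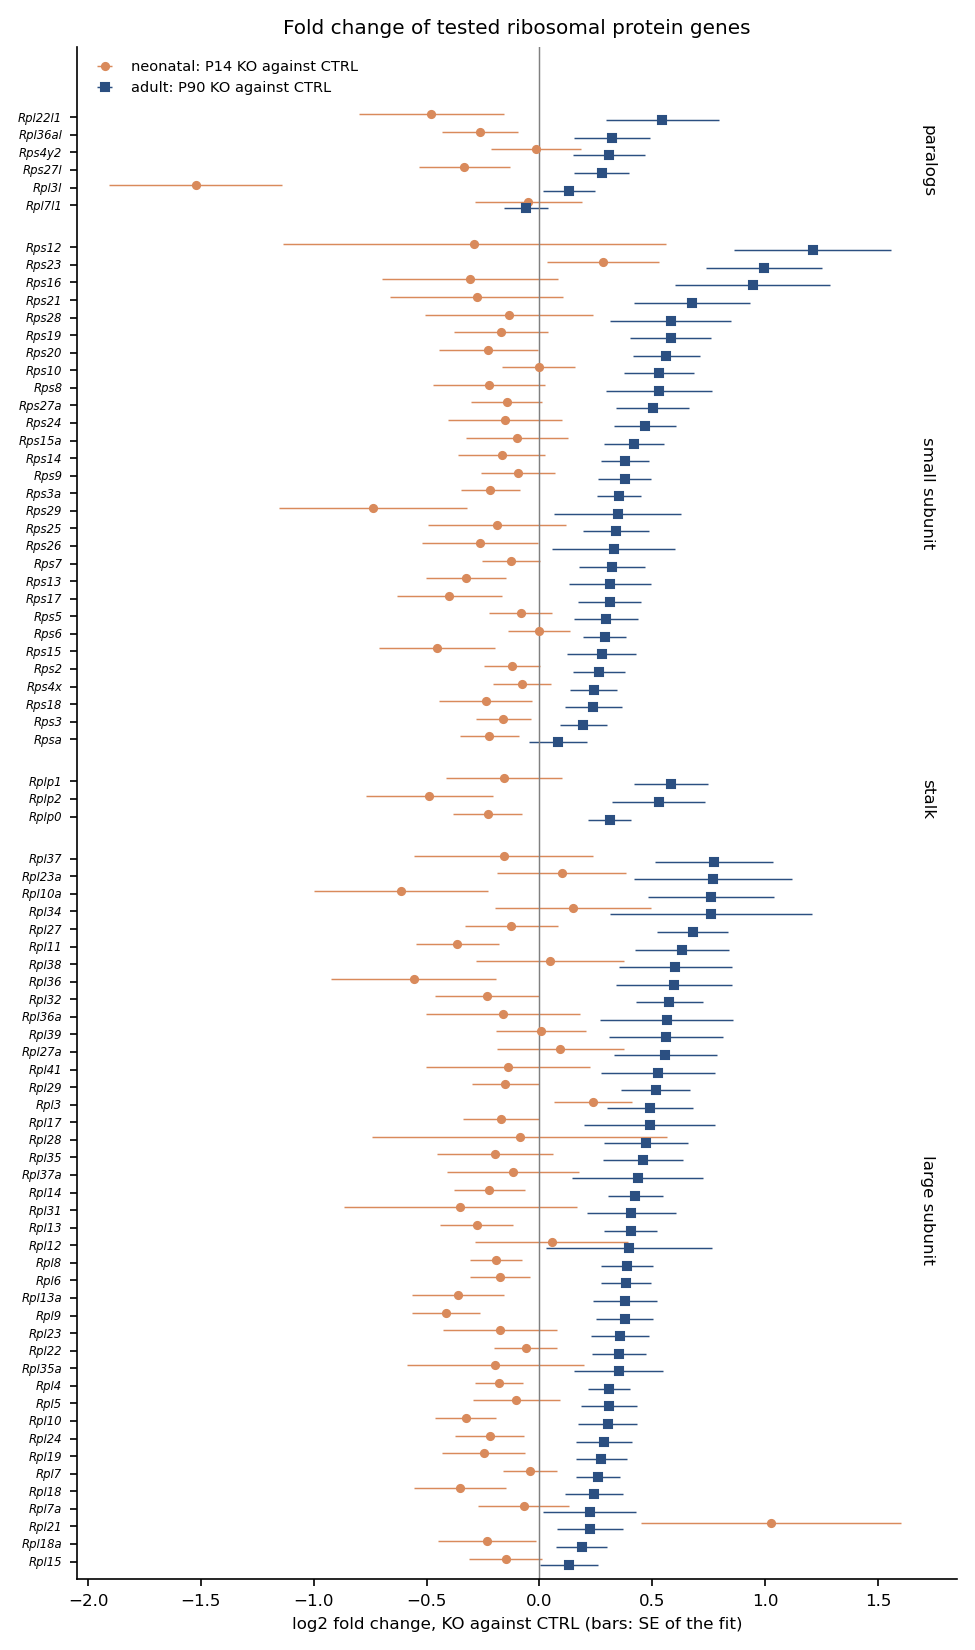
Log2 fold change of KO against CTRL, with the standard error of the fit, for 79 of the 80 tested members, in the neonatal (circles) and the adult (squares) model, grouped by role and ordered by the adult value. Of the squares, 78 lie right of 0, and of the circles 70 lie left of it, with Rpl3l farthest left at −1.52 and Rpl21 farthest right at 1.02.

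Rps23, a protein of the decoding centre, had the highest log2 difference among members with a mean of at least 5 CPM. Rps23 stood at 19.8, 9.02 and 9.09 CPM in P90 CTRL and 27.7, 27.2 and 22.4 CPM in P90 KO (0.99 ± 0.26, adjusted p = 0.120 in edgeR). The KO samples lay above the CTRL samples, of which sample 1 came nearest. Rps16, which reaches with its tail towards the tRNA in the P site, stood at 13.7, 3.26 and 8.38 CPM in CTRL and 19.0, 18.5 and 13.2 CPM in KO (0.94 ± 0.34, adjusted p = 0.219), with P90 KO sample 3 inside the CTRL range. Rpl37 stood at 14.6, 9.12 and 12.3 CPM in CTRL and 16.3, 30.5 and 15.1 CPM in KO (0.77 ± 0.26, adjusted p = 0.190), with KO sample 2 far above the other 2. Rps12 gave 1.21 ± 0.35 from levels of 1.63 to 7.28 CPM.

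Rplp0 stood at 279, 257 and 293 CPM in P90 CTRL and 359, 347 and 318 CPM in P90 KO, with a log2 difference of 0.31 ± 0.09 (adjusted p = 0.154 in edgeR). Rplp1 and Rplp2, the acidic stalk proteins that Rplp0 anchors, gave 0.58 ± 0.17 and 0.53 ± 0.21. The groups did not overlap for Rplp0, while for Rplp1 and Rplp2 KO sample 3 lay within the CTRL range. Rps6 stood at 46.9, 49.9 and 48.2 CPM in CTRL and 62.2, 59.8 and 54.2 CPM in KO, with no overlap (0.29 ± 0.10, adjusted p = 0.185). Rpl4 stood at 162.5, 155 and 166 CPM in CTRL and 207, 207 and 182 CPM in KO, also with no overlap (0.31 ± 0.09, adjusted p = 0.152). Rpl4 was chosen after its values were seen, as 1 of the most abundant members.

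The remaining members named by role were also higher by less than 1 on the log2 scale. Rpl11 gave 0.63 ± 0.21, Rpl5 0.31 ± 0.12, Rps19 0.58 ± 0.18, Rpl38 0.60 ± 0.25, Rpl10a 0.76 ± 0.28, Rpl13a 0.38 ± 0.14 and Rps25 0.34 ± 0.15. The 3 lowest members were Rpl7l1 at −0.06 ± 0.10, Rpsa at 0.08 ± 0.13 and Rpl3l at 0.13 ± 0.12. Rpsa stood at 71.1, 74.0 and 82.2 CPM in CTRL and 96.1, 74.8 and 68.5 CPM in KO, and its difference went to −0.08 without P90 KO sample 1. The groups overlapped for all 3.

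A direct test of the difference between the neonatal and the adult KO effect, the interaction, gave 0 of 80 members at an adjusted p under 0.05 in edgeR, where 1.78% of all genes passed in either direction. With the replicate number as a block, 7 members passed, all with a lower neonatal effect, where 3.15% of all genes did. DESeq2 gave 9 with a lower effect, where 6.17% of all genes had one. In edgeR without the block, 5 passed without P14 CTRL sample 3 and 2 without P90 KO sample 3, where 2.67% and 2.12% of all genes passed in either direction. The interaction was below 0, that is, the KO effect was lower in the neonatal model, in 78 of 80 members, with a median of −0.58 on the log2 scale against −0.01 over all genes. At an unadjusted p under 0.05, 37 members had a lower neonatal effect, against 10.4% of all genes, and 0 had a higher one. As the members moved together by sample, these are not 80 separate results. The median was −0.41 for the 19 members of 1000 exon bases or more, against 0.02 for other genes of that length. It was −0.63 for shorter members, against −0.44 for other short genes. With the correction for length, the median over the members was −0.21.

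Among members with a mean of at least 5 CPM, the lowest interactions were those of Rpl3l (−1.64 ± 0.43, adjusted p = 0.0682 in edgeR, and 0.0113 with the block), Rpl10a (−1.38 ± 0.54, adjusted p = 0.188) and Rps16 (−1.26 ± 0.61, adjusted p = 0.288). Rps12, below that level, gave −1.51 ± 1.00 (adjusted p = 0.456). The 2 members above 0 were Rpl21 (0.81 ± 0.60) and Rpl7l1 (0.02 ± 0.27), followed by Rpl3 at −0.24 ± 0.29. Rpl21 stood at 2.07, 2.87 and 9.64 CPM in P14 KO, and without the third of these samples its interaction was −0.18. Its P14 means, 2.37 CPM in CTRL and 4.86 CPM in KO, were both under 5 CPM.

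The comparison of CTRL samples describes how the members differ between the stages in CMs with an intact Srf copy. Each stage has its own count table, so stage cannot be told apart from other differences between the 2 sets of samples. Between P14 and P90 the members did not shift as a group: 35 of 80 were higher at P90 and 45 lower, with a median of −0.04 on the log2 scale against −0.01 over all genes. At an adjusted p under 0.05 in edgeR, 12 of 80 were lower at P90, where 14.9% of all genes were lower, and 3 of 80 were higher, where 14.5% were. The 12 that fell were 9 large subunit genes (Rpl3, Rpl4, Rpl5, Rpl6, Rpl8, Rpl10, Rpl17, Rpl22 and Rpl29), the small subunit genes Rps4x and Rps7, and the copy Rps4y2. The 3 that rose were Rpl21, Rpl35a and Rpl3l. The count of 15 went to 7 without P14 CTRL sample 1, where 18.6% of all genes passed in either direction, and to 6, 7 and 8 without P90 CTRL sample 1, 2 and 3, where 16.5%, 19.5% and 16.7% did. Without P14 CTRL sample 2 it was 17, with 12 higher and 5 lower, where 38.2% of all genes passed.

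Of those that rose, Rpl21, a large subunit protein, had the highest difference, 2.74 ± 0.26 with an adjusted p of 2.37e-04. Rpl21 stood at 2.86, 2.80 and 1.46 CPM in P14 CTRL and 14.1, 16.6 and 17.4 CPM in P90 CTRL. Its mean was 2.37 CPM in P14 CTRL and 16.0 CPM in P90 CTRL. It therefore met the limit of 5 CPM only through P90, and its P14 level rests on few counts. Rpl35a stood at 5.02, 9.55 and 6.96 CPM in P14 CTRL and 18.3, 14.5 and 11.3 CPM in P90 CTRL (1.04 ± 0.26, adjusted p = 0.0179). Neither gene overlapped between stages. The call on Rpl35a was lost without P14 CTRL sample 1 (adjusted p = 0.0543) or P90 CTRL sample 1 (adjusted p = 0.0844).

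Of those that fell, Rpl3 had the lowest difference and Rps4y2, a copy of Rps4x, the next, at −0.95 ± 0.16 with an adjusted p of 0.00278. Rps4y2 stood at 30.9, 35.3 and 42.1 CPM in P14 CTRL and 20.3, 16.3 and 19.2 CPM in P90 CTRL. Rpl8, with means of 106 and 69.1 CPM, gave −0.62 ± 0.13 (adjusted p = 0.00717). For Rps4y2 and Rpl8 every P90 sample lay below every P14 sample. Rps16 gave −0.80 ± 0.51 and did not pass (adjusted p = 0.266).

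**Figure D4:**
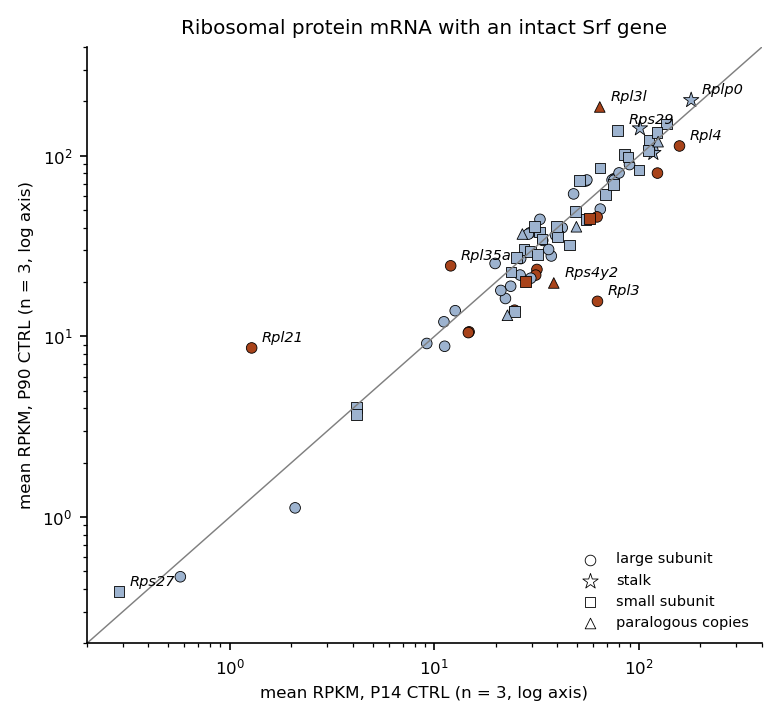
Mean RPKM of 82 members in P90 CTRL against P14 CTRL, on log axes, with shapes for roles, the line of equal level, and red for members at an adjusted p under 0.05 in edgeR. Most members lie along the line, while Rpl21, Rpl3l and Rpl35a lie above it and Rpl3 and Rps4y2 below it.

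The largest exchange between members was that of Rpl3 (chr15:80077781-80083406, mm10, minus strand) for Rpl3l (chr17:24727829-24736149, plus strand). Rpl3 stood at 106, 62.8 and 87.0 CPM in P14 CTRL and 26.4, 22.9 and 14.6 CPM in P90 CTRL (log2 difference −2.001 ± 0.25, adjusted p = 8.01e-04 in edgeR). Rpl3l stood at 81.8, 163 and 63.1 CPM in P14 CTRL and 301, 279.7 and 310.5 CPM in P90 CTRL (1.54 ± 0.30, adjusted p = 0.0055). Both genes were apart between the stages in every sample. Of the 2 mRNAs together, on the RPKM scale, Rpl3l made up 48.9% at P14 (38.3% to 68.9% over the 3 samples) and 92.2% at P90 (90.7% to 94.8%). Their sum was 127 ± 22.6 RPKM at P14 and 202 ± 8.59 RPKM at P90.

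Neonatal KO CMs held less of the muscle copy. Rpl3l stood at 42.8, 43.4 and 21.5 CPM in P14 KO, every sample below the lowest P14 CTRL sample at 63.1 CPM, while Rpl3 stood at 98.3, 104 and 99.9 CPM, inside the CTRL range. Rpl3l made up 22.9% of the pair in P14 KO (15.5% to 27.1%). The log2 ratio of Rpl3l to Rpl3 was −0.61, 1.149 and −0.69 in P14 CTRL and −1.43, −1.49 and −2.45 in P14 KO, a log2 difference of −1.74 with no overlap (exact two-sided permutation p = 0.10, the smallest that 3 against 3 samples can give, and 0.375 after Benjamini-Hochberg adjustment over 15 ratio tests). The call on Rpl3l alone was lost when any of 5 samples was left out, with adjusted p from 0.0664 without P14 CTRL sample 1 to 0.146 without P14 KO sample 3. The difference of Rpl3l was −1.02 without P14 CTRL sample 2, the sample with the highest level. In these 5 fits 0.873% to 7.85% of all genes passed in either direction, against 8.59% with all samples.

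In adult KO the exchange was nearly as complete as in CTRL. Rpl3l stood at 362, 339 and 271 CPM in P90 KO and made up 90.2% of the pair. Rpl3 stood at 33.9, 28.4 and 27.4 CPM, above the 3 CTRL samples, with a log2 difference of 0.49 ± 0.19 (adjusted p = 0.241 in edgeR). The log2 ratio was 3.28, 3.38 and 4.19 in P90 CTRL and 3.19, 3.35 and 3.07 in P90 KO, with overlap (difference −0.41, exact permutation p = 0.20). The stage difference of the ratio in CTRL was 3.67, with no overlap and the same smallest exact p of 0.10.

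**Figure D5:**
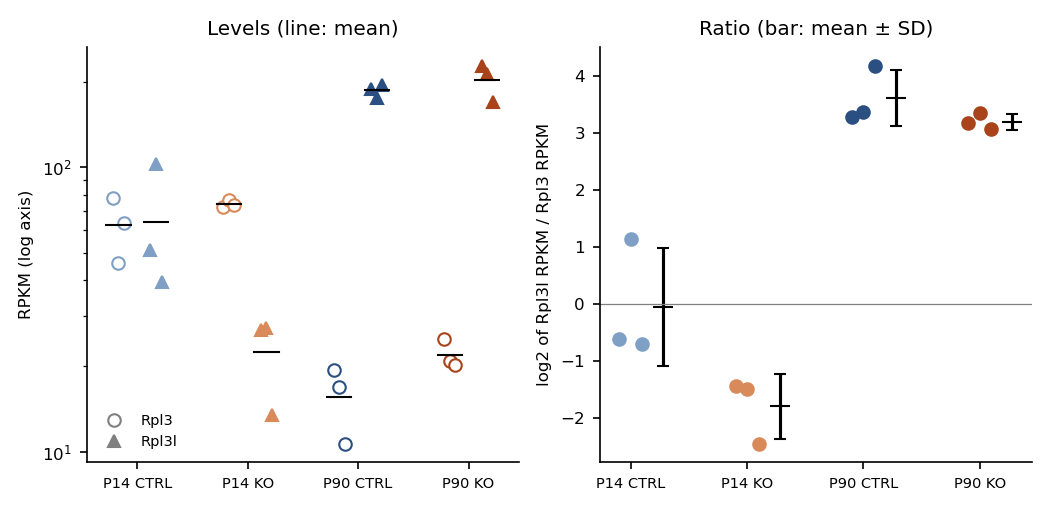
Left, RPKM of Rpl3 (open circles) and Rpl3l (triangles) in each sample on a log axis, with lines for the group means. Right, the log2 ratio of Rpl3l to Rpl3 in each sample, with the group mean ± SD: the 3 P14 KO samples lie below the 3 P14 CTRL samples, and the P90 samples lie above 3 in both genotypes.

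Rpl3l was the only member past the threshold in neonatal KO, so the sequence before its start is shown. As given above, that call was lost when any of 5 samples was left out. The 150 bases before the RefSeq start (chr17:24727676-24727825, GRCm38.p6, plus strand), with matches to the E-box CANNTG in capitals, read 5′ to 3′:
Rpl3l: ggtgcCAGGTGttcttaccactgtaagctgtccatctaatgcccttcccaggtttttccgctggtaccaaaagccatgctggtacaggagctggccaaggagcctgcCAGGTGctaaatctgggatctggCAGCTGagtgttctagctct

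The 3 matches begin 145, 43 and 20 bases before the start. At least 3 matches in these 150 bases were found for 0 of the 56 subunit genes with a window and for 4.33% of all genes. This number and this window equal what is printed for Rpl3l, so Rpl3l meets them by construction. As few of all genes meet them, 0 of 56 does not set Rpl3l apart from the subunit genes. Over 250 bases and on both strands, subunit genes held an E-box less often, in 28 of 56 against 69.3% of all genes. The 250 bases before the start of Rpl3l held no match to the CArG box, which says only that these letters are not in this window. The E-box is the kind of sequence that many basic helix-loop-helix factors bind, and no binding was measured here.

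Of the 12 comparisons of the 4 other testable copies with their parent gene, 2 gave groups without overlap. For the levels of all genes tested, P90 KO lay wholly above CTRL in 10.4% and wholly below in 11.2%. P14 KO did so in 16.0% and 16.7%, and P90 CTRL against P14 CTRL in 22.1% and 22.8%. A count of 2 of 12 therefore does not set the copies apart. Rpl7l1, which is known from ribosome assembly rather than from the mature particle, stood at 0.528, 0.473 and 0.482 of Rpl7 on the RPKM scale in P90 CTRL and at 0.387, 0.391 and 0.416 in P90 KO. The groups did not overlap, with a log2 difference of −0.31 (exact permutation p = 0.10, adjusted 0.375). Rps4y2 stood at 0.600, 0.586 and 0.833 of Rps4x in P14 CTRL and 0.505, 0.390 and 0.430 in P90 CTRL, also without overlap (−0.60, exact permutation p = 0.10, adjusted 0.375). Rpl22l1 stood above Rpl22 in 10 of 12 samples, with log2 ratios from −0.26 to 0.96 over the 12 samples, and Rpl36al exceeded Rpl36a in all 12, with linear ratios from 1.71 to 3.66. For both, the groups overlapped in each of the 3 comparisons. Rps27l stood at 119.7 RPKM in P90 CTRL. The level of its parent Rps27 cannot be taken to measure the mRNA, for the reason given above, so no ratio was tested. Rpl10l and Rpl39l, which are known from the testis, were at most 0.0956 CPM and 0.440 CPM in any sample.

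Of 68 ribosome biogenesis factors, 0 passed an adjusted p under 0.05 in edgeR in either KO comparison, with medians of 0.01 in neonatal and 0.11 in adult KO, and 55 of 68 were above 0 in the adult. At an unadjusted p under 0.05, 3 were higher and 4 lower in neonatal and 5 higher in adult KO, and DESeq2 called 1 higher in each. Of 39 tested translation initiation factors, 0 passed, with medians of −0.11 and 0.09. DESeq2 called 3 lower in neonatal KO, and the unadjusted count was 5 lower in neonatal and 6 higher in adult KO. The 18 other mRNAs known to carry a TOP tract had medians of −0.02 and 0.18, and 0 passed in edgeR. DESeq2 called 1 lower in neonatal and 1 higher in adult KO, and the unadjusted counts were 2 higher and 4 lower, and 3 higher. The 3 other genes whose product is or carries a ribosomal protein had medians of −0.24 and 0.34, and 0 passed by either tool. Among 38 genes of the RNA polymerase I and III machinery, which make the ribosomal RNAs and tRNAs, 0 passed in adult KO, with 2 higher and 3 lower at an unadjusted p under 0.05 and 1 lower in DESeq2. Of all genes, edgeR called 3.99% higher and 4.60% lower in neonatal KO, and 0.237% and 0.152% in adult KO. DESeq2 called 6.19% and 7.86%, and 1.86% and 2.04%. At an unadjusted p under 0.05, 25.6% passed in either direction in neonatal KO, and 8.13% were higher in adult KO.

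In neonatal KO, edgeR called 2 of 10 genes of the Myc group higher and 1 of 37 TOP and mTORC1 regulators lower. DESeq2 called 2 higher and 4 lower, and at an unadjusted p under 0.05 there were 3 higher in the former list and 1 higher and 5 lower in the latter. Of all genes, edgeR called 3.99% higher and 4.60% lower, and DESeq2 6.19% and 7.86%. At an unadjusted p under 0.05, 25.6% passed in either direction. Myc, a transcription factor that drives ribosome production in growing cells, stood at 4.08, 1.70 and 3.68 CPM in P14 CTRL and 9.41, 12.1 and 10.4 CPM in P14 KO, and rose by 1.75 ± 0.31 on the log2 scale (adjusted p = 0.0173 in edgeR). Mxd4, which competes with Myc for its partner Max, also rose, by 0.96 ± 0.17 (adjusted p = 0.0164), from 10.7, 8.45 and 9.59 CPM to 19.9, 20.6 and 15.4 CPM. Larp1b, a relative of the TOP-binding protein LARP1, fell by 1.02 ± 0.16 (adjusted p = 0.0131), from 51.5, 73.9 and 54.6 CPM to 28.7, 32.6 and 27.6 CPM. None of the 3 overlapped between the groups. In adult KO, 0 of 9 tested genes of the Myc group and 0 of 37 TOP and mTORC1 regulators passed, with 1 higher and 1 lower, and 7 lower, at an unadjusted p under 0.05. DESeq2 called 0 and 1. Of all genes in adult KO, DESeq2 called 1.86% higher and 2.04% lower. At an unadjusted p under 0.05, 8.13% were higher in adult KO. Lower ones were 14 of 724 other genes under 1000 exon bases and 936 of 11004 other genes of 1000 or more. Myc gave 1.30 ± 0.39 there (adjusted p = 0.152 in edgeR), and the difference between its effects in the neonatal and adult models was 0.45 ± 0.55 (adjusted p = 0.715). Between P14 and P90 in CTRL, 1 of 68 biogenesis factors was higher and 6 lower, 5 of 38 genes of the polymerase machinery were higher and 2 lower, and 4 of 39 initiation factors were higher and 8 lower. Of 37 TOP and mTORC1 regulators, 5 were higher and 4 lower, and of the 18 other TOP mRNAs 5 were lower. Between these stages 14.5% of all genes were higher at P90 and 14.9% lower.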

How the data were processed

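RNA from sorted CMs was reverse transcribed and amplified with a low-input kit, made into Nextera XT libraries and sequenced. Per the submitters' processing notes, the authors used CASAVA 1.8, STAR 2.5.3a and featureCounts (Subread 1.5.2) with the mouse build mm10. They deposited raw read counts per gene, not normalized, in 2 tables, 1 for each stage. Strand setting and treatment of reads with several matches are not given in the sources used here.

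Here, counts were tested in R 4.3.3 with edgeR 4.0.16 (filterByExpr, TMM scaling, quasi-likelihood F-test, Benjamini-Hochberg adjustment over all genes, threshold 0.05), on the samples of each comparison, or on all 12 for the interaction. DESeq2 1.42.0, the study's own tool, was an alternative. The procedure was tested on simulated counts. CPM and RPKM came from the counts, TMM factors of the 12 samples and the tables' exon lengths. A floor of 3 counts was 0.130 to 0.308 CPM, which covers counting error only, as reads carry no molecular identifiers. Paralog ratios were compared by exact two-sided permutation tests. The standard error of a log2 difference was derived from the F statistic.

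Members named were those fixed by role (Rpl3 and Rpl3l, the stalk, Rpsa, Rps6, Rpl5, Rpl11, Rps19, Rpl13a, Rpl38, Rpl10a, Rps25, and copies with parents), the 3 highest and lowest per comparison at a mean of at least 5 CPM, and those past the threshold, or the 5 with the smallest p where more than 10 passed. Other lists give counts and, past the threshold, the 2 highest and lowest. The members and lists were chosen with earlier results of these data known. Deviations from the group means of same-numbered CTRL and KO samples, matched only by their label number, correlated at 0.13, 0.12 and 0.44 at P14 and at 0.25, 0.01 and 0.07 at P90. At P14, CTRL sample 1 correlated at 0.16 with KO sample 2, and CTRL sample 2 at 0.14 with KO sample 1. The other differently numbered P14 samples gave −0.27 to −0.22. These values do not show that a number marks a pair at either stage. The main fits had no block, and fits with the block are alternatives. Promoter windows came from RefSeq (GRCm38.p6). The p-values measure the spread between these samples. A member and a gene of another list are not reported here by name, and that member is not drawn in the plots that label every gene.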

Additional observations from a re-analysis of the deposited data

How the results depend on the processing

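Leaving out 1 sample at a time gave 0 to 1 members past the threshold in neonatal KO and 0 to 1 in adult KO. The 1 in adult KO was Rps23, without P90 CTRL sample 1. The interaction gave 0 to 5 members and the CTRL stages 6 to 17. Of all genes, 0.873% to 7.85% passed in either direction in these neonatal fits and 0.0507% to 0.422% in the adult ones. The shares were 0.0305% to 2.89% for the interaction and 16.5% to 38.2% between the CTRL stages. With all samples they were 8.59%, 0.390%, 1.78% and 29.3%, in that order. Neonatal Rpl3l was lost without P14 CTRL sample 1 or 2 or any P14 KO sample, and without the paralogous copies the neonatal count was 0. DESeq2 gave 6 members in adult KO and 9 for the interaction, and edgeR without a filter on low counts gave 34 and 3. Of all genes, DESeq2 called 3.90% and 9.32% in either direction, and edgeR without the filter 3.60% and 2.23%. With the length correction the interaction median was −0.21 (−0.2101). Over the samples left out, Rpl23a in neonatal KO ranged from −0.2179 to 0.3574, Rpsa in adult KO from −0.0758 to 0.1731, and in the interaction Rpl21 from −0.1789 to 1.1626 and Rpl7l1 from −0.2016 to 0.3183. Rpsa was −0.0031 with the length correction, and Rpl7l1 −0.0038 without the filter. The cause was not tested.

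Blocking on the replicate number, edgeR gave 29 members in adult KO, 7 for the interaction and 8 between the CTRL stages, and the neonatal count stayed at 1. Of all genes, 2.67% were called higher in adult KO, 3.15% lower for the interaction and 25.5% in either direction between the CTRL stages. In neonatal KO 6.47% were called lower. The block with the length correction gave 1 in adult KO, 1 for the interaction, an interaction median of −0.2068 and −0.0065 for Rpsa. That setting called 1.91% of all genes in adult KO and 1.71% for the interaction, in either direction. All correlations of same-numbered P14 samples passed 0.1, but so did some of differently numbered P14 samples. At P90 only that of the first same-numbered samples did. Between the CTRL stages the block matches samples by number alone. The counts with the block therefore rest on numbers not known to mark pairs. Low counts limit members under 5 CPM, such as Rps12 and, by its P14 means, Rpl21. With 3 replicates, every exact test is limited to p = 0.10.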
